A study of Mus musculus with 8 samples.

Results

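The cytosolic ribosomal proteins were examined in small intestine of mice that lack IκBα in the intestinal epithelium. The members were the probe sets whose gene symbol is Rpl or Rps with digits and at most 1 ending letter a or x, or is Rplp0, Rplp1, Rplp2 or Rpsa, without pseudogenes and Rps6k kinases. This rule found 54 genes with 1 probe set each, of 22206 probe sets in all. Of these, 21 belong to the small ribosomal subunit and 33 to the large one. Rplp2, Rpl10 and Rps27a, which the rule would admit, are not analysed here.

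The knockout group held 4 mice labelled as depleted of IκBα, the product of Nfkbia, and the other group held 4 wild-type siblings of these mice. Per the series design the knockouts carried a floxed IκBα gene and Cre under the Villin promoter, which is active in intestinal epithelial cells, so the gene is kept in muscle, stromal and immune cells of the same tissue. The labels do not say whether the wild types carried Cre or the floxed allele. The mice were untreated and 8 to 11 weeks old, with 2 males and 2 females per group. Siblings had the same sex in pairs 1 and 2 and different sexes in pairs 3 and 4. Total RNA of frozen tissue, called small intestine in the labels and duodenum in the series design, was hybridised to Clariom S arrays, 1 array per mouse. In RNA from whole tissue a lower share of a cell type and less RNA per cell of that type cannot be told apart.

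Ribosomal proteins fold around the ribosomal RNAs to form the particle that makes protein. The small subunit reads the messenger RNA, and the large subunit joins the amino acids. Ribosomal protein messengers mostly begin with a run of pyrimidines, the terminal oligopyrimidine motif, through which mTOR and the RNA-binding protein Larp1 set their translation, so a messenger level does not give the rate of protein synthesis. Dividing crypt cells of the intestine build many ribosomes. Nfkbia encodes the inhibitor that retains NF-κB in the cytoplasm.

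The deposited values were log2 expression values, in which a difference of 1 is a doubling. All differences below are knockout minus wild-type sibling, averaged over the 4 pairs, and ± gives the SD of the 4 within-pair differences. They were tested with limma, a linear model fitted to all probe sets, with the sibling pair as a block, and a gene was called at a Benjamini-Hochberg adjusted p under 0.05. Array medians lay between 6.77 and 6.81, and RNA integrity numbers between 7.0 and 8.7. Nfkbia, the deleted gene, averaged 6.96 in the knockouts against 9.61 in their siblings, a fall found in 4 of 4 pairs (limma adjusted p = 0.0130; 0.0545, 0.0582, 0.00106 and 0.0512 without pair 1, 2, 3 or 4). The epithelial genes Vil1 and Epcam stood at 12.3 to 12.7 and 12.8 to 13.1 on all arrays, so epithelium was present in each sample. Both were lower in the knockout of 4 of 4 pairs, by means of −0.34 and −0.20, without a call (limma adjusted p = 0.0512 and 0.120). Other epithelial genes went the other way. Of 13 epithelium genes 6 had a mean difference above 0 and 7 below, with a median of −0.02 and 1 called higher. The deposited values held little difference between pairs (the median SD of the 4 pair means was 0.0175), so a knockout value and its sibling's mirror each other. The tests rest on within-pair differences. Statements that groups do not overlap, and fits without the pair as a fixed block, also set values of different pairs side by side and are affected by this. Of all probe sets 3667 were higher in 4 of 4 pairs, and 3533 had all knockout values above all wild-type values. Absence of overlap therefore adds little to the count of pairs.

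Transcripts of ribosomal proteins tended to be higher in the knockouts by a small amount. All 54 members had a mean difference above 0, against 46.3% of all probe sets and 58.9% of the 5773 probe sets within the same range of mean log2 values (8.40 to 13.2). The median difference of the members was 0.19, with a range from 0.01 for Rpl4 to 0.36 for Rpsa, which corresponds to 1.01-fold to 1.29-fold. The median over all probe sets was −0.015, and that over the probe sets within the members' range of values was 0.045. A single member, Rpl29, passed the adjusted threshold, and 0 members were called lower. Over all probe sets 3.16% were called higher and 2.70% lower, and within the members' range of values 6.17% were called higher. The share of members called was thus no higher than the background. At an unadjusted p under 0.05, 21 members were higher and 0 lower, against 13.2% of all probe sets and 22.1% of those in the same range of values that were higher.

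The size of the difference varied between pairs. The median over the members was 0.39 in pair 1, 0.19 in pair 2, 0.125 in pair 3 and 0.04 in pair 4. In pair 1 all 54 members were higher in the knockout, and in pairs 2 and 3 there were 51 each. In pair 4 the knockout was higher for 32 members and lower for 21. A difference above 0 in every pair was found for 30 members, against 16.5% of all probe sets and 29.0% in the members' range of values. For 27 members the 4 knockout values lay above the 4 wild-type values without overlap, against 15.9% of all probe sets and 28.0% in that range. Without pair 1 the median over the members was 0.11. Without pairs 1 and 2 it was 0.085, with 43 members above 0, and without pairs 3 and 4 it was 0.29.

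**Figure D1:**
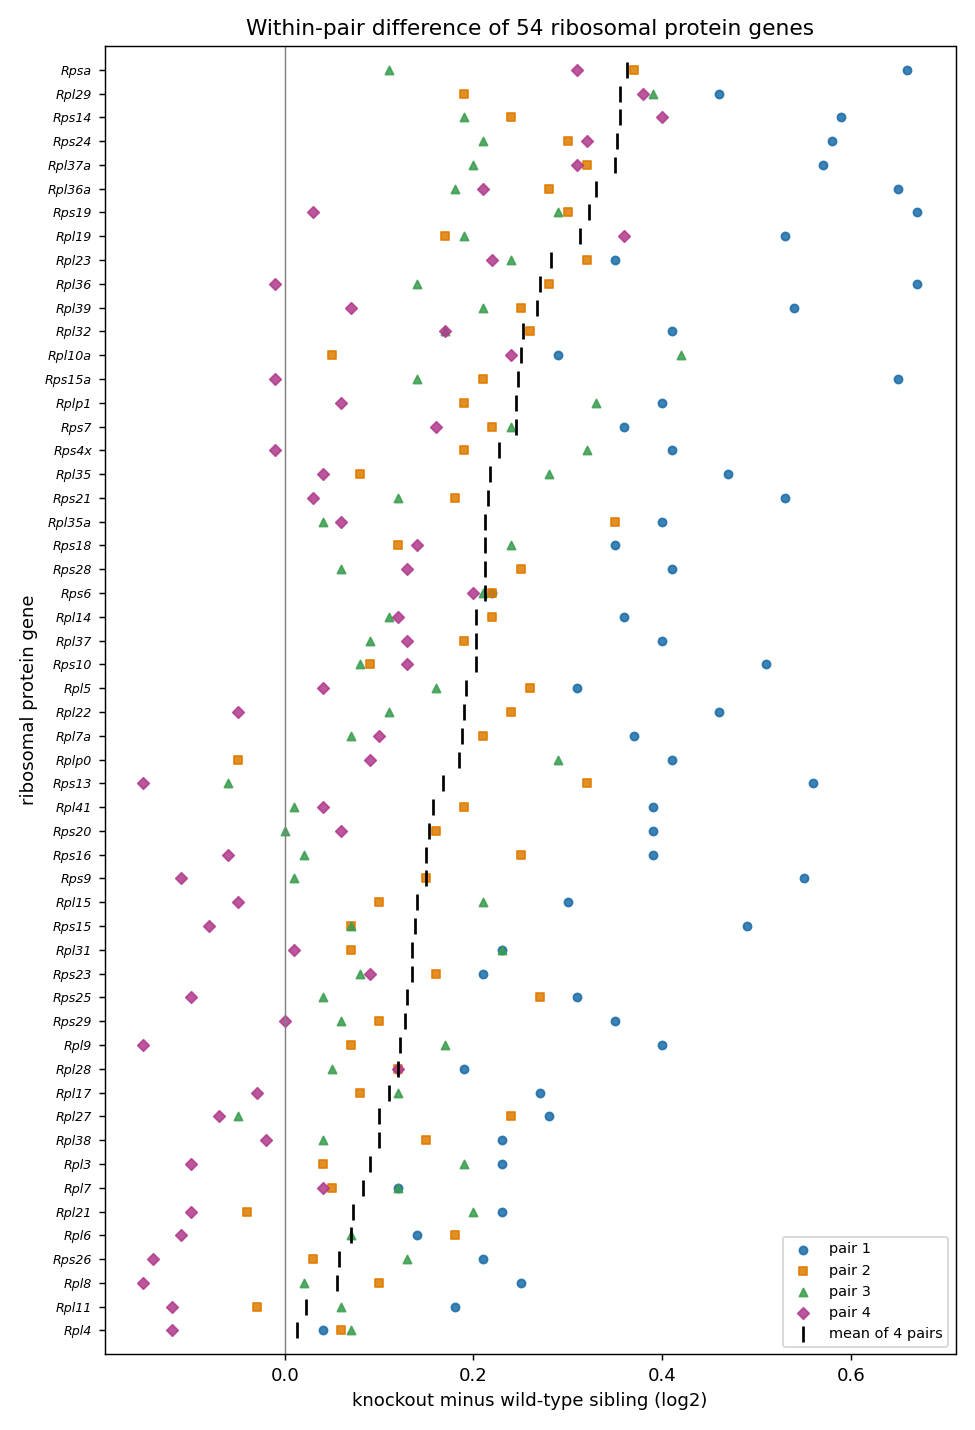
Knockout minus wild-type difference (log2, horizontal axis) of each of the 54 ribosomal protein genes (rows, ordered by mean), with a symbol for each sibling pair and a black bar for the mean of the 4 pairs. All means lie above 0, from 0.01 for Rpl4 to 0.36 for Rpsa, and the points of pair 1 lie mostly farthest to the right while 21 points of pair 4 lie below 0.

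Start regions of members with large and with small differences are shown so that pyrimidine runs near the annotated start can be seen beside the values. RefSeq start regions of GRCm38.p6 were matched by symbol for 42 of the 54 members. Each line gives 40 bases before and 20 bases from the annotated start, read 5′ to 3′ on the gene's strand. Capitals mark the longest run of at least 6 C or T bases that reaches within 10 bases of the start. A marked run can lie wholly before the start, as for Rpl19 and Rpl4, or begin after it, as for Rps26. The marks therefore do not measure the terminal oligopyrimidine motif itself.
Rpsa, chr9:120127726-120127785, plus strand: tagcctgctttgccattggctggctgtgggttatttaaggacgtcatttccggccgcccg
Rps24, chr14:24490638-24490697, plus strand: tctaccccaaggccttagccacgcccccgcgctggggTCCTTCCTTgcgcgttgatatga
Rpl37a, chr1:72711220-72711279, plus strand: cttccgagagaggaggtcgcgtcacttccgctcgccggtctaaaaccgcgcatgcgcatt
Rpl19, chr11:98026884-98026943, plus strand: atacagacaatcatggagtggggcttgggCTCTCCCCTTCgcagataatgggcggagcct
Rps6, chr4:86857348-86857407, minus strand: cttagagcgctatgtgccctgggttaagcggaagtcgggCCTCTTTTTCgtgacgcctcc
Rpl7a, chr2:26910767-26910826, plus strand: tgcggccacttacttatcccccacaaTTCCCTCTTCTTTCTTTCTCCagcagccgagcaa
Rps26, chr10:128626487-128626546, minus strand: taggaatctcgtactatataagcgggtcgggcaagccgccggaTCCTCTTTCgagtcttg
Rpl11, chr4:136053374-136053433, minus strand: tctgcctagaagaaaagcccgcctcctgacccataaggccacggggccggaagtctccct
Rpl4, chr9:64173347-64173406, plus strand: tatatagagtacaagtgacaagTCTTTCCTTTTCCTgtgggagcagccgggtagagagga

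A run as marked here was found near 25 of 51 annotated starts of members (49.0%), and near 29.2% of all 32851 starts in the table. The run appeared beside large and small differences alike: the 25 genes with it had a median difference of 0.20 and the 17 without it 0.19. The longest run among the members, of 21 bases, stood at the start of Rpl7a, and Rpl4, with the smallest difference, has one of 14 bases. Within the 300 bases of the table (250 before the start), both strands were searched for short motifs. CCGGAAG, the core that ETS factors such as GABP bind, was in 37.3% of member starts and 8.86% of all starts. AANATGGC, the YY1 motif, was in 17.6% and 6.05%, and TCTCGCGA in 15.7% and 0.995%. GGGANTTTC, a form of the NF-κB site, was in 0 of the 51 member starts and in 1.11% of all starts. The 18 genes with CCGGAAG had a median difference of 0.20 and the 24 without it 0.19. These matches describe the letters in the window only.

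Among the small subunit genes, 21 of 21 had a mean difference above 0, with a median of 0.21, and 0 passed the adjusted threshold by limma. At an unadjusted p under 0.05, 9 of the 21 (42.9%) were higher, against 13.2% of all probe sets and 22.1% of those in the members' range of values. Rpsa, also known as a laminin receptor, stood at 10.65, 10.80, 10.91 and 10.79 in the wild types of pairs 1 to 4 and at 11.31, 11.17, 11.02 and 11.10 in their knockout siblings. All 4 knockouts lay above all 4 wild types, and pair 1 differed most. The mean difference was 0.36 ± 0.23 (limma adjusted p = 0.0825). Rps14, a protein of the small subunit whose loss causes anaemia in human del(5q) syndrome, stood at 10.76, 10.94, 10.94 and 10.81 in wild types and at 11.35, 11.18, 11.13 and 11.21 in knockouts. Its difference of 0.355 ± 0.18 likewise came without overlap of the groups (adjusted p = 0.0671). Rps24, mutated in some cases of Diamond-Blackfan anaemia, had values of 12.03, 12.17, 12.17 and 12.11 in wild types and 12.61, 12.47, 12.38 and 12.43 in knockouts. It differed by 0.35 ± 0.16 (adjusted p = 0.0611).

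Rps19, the gene most often mutated in Diamond-Blackfan anaemia, differed by 0.67, 0.30, 0.29 and 0.03 in pairs 1 to 4, a mean of 0.32 ± 0.26 (limma adjusted p = 0.126). Its groups did not overlap, but pair 4 was nearly level. Rps6, the ribosomal target of S6 kinase downstream of mTOR, showed the most even difference among the members: 11.90, 11.90, 11.86 and 11.86 in wild types against 12.12, 12.12, 12.07 and 12.06 in knockouts. The 4 differences lay between 0.20 and 0.22, with a mean of 0.21 ± 0.0096. Its adjusted p was 0.103, since limma draws each gene's variance towards that of all genes, and its 95% interval ran from 0.05 to 0.37. Rps7, which like several ribosomal proteins can bind Mdm2, differed by 0.245 ± 0.084, and Rps18, a protein of the small subunit's head, by 0.21 ± 0.11, both without overlap. Rps23, which lies near the decoding centre, stood at 13.08 to 13.13 in wild types and 13.21 to 13.29 in knockouts, a difference of 0.135 ± 0.061.

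Rps4x, an X-linked gene of the small subunit, differed by 0.41 and 0.19 in the same-sex pairs 1 and 2. It differed by 0.32 in pair 3, where the knockout was the male, and by −0.01 in pair 4, where it was the female. Rpl36a and Rpl39, the other X-linked members by RefSeq, differed by 0.18 and 0.21 in pair 3 and by 0.21 and 0.07 in pair 4, so the 3 genes did not share an order between these pairs. The part of sex in these values was not tested gene by gene. With sex added to the block, 0 members were called and the median over the members was 0.19. The design fixes that median, since the knockout was the male in pair 3 and the female in pair 4. The unchanged median is therefore no test of sex. This fit leaves 2 residual degrees of freedom instead of 3, and it called 231 probe sets higher, against 702 in the reported fit.

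The rest of the small subunit genes had smaller or less even differences. Rps15a, Rps28, Rps21 and Rps10 differed by 0.25, 0.21, 0.215 and 0.20. Rps28 was higher in 4 of 4 pairs, whereas Rps15a had −0.01 in pair 4. Rps13 was the most divided between pairs, with 0.56 and 0.32 in pairs 1 and 2 but −0.06 and −0.15 in pairs 3 and 4. Rps9, Rps16 and Rps25 were each lower in the knockout of pair 4 only (−0.11, −0.06 and −0.10), as was Rps15 (−0.08). Rps20 and Rps29, with means of 0.15 and 0.13, were level in pair 3 and pair 4, respectively. Rps26, at the messenger's exit from the small subunit, had the smallest difference of this subunit, 0.06 ± 0.15, with wild types from 11.09 to 11.22 and knockouts from 11.08 to 11.30.

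**Figure D2:**
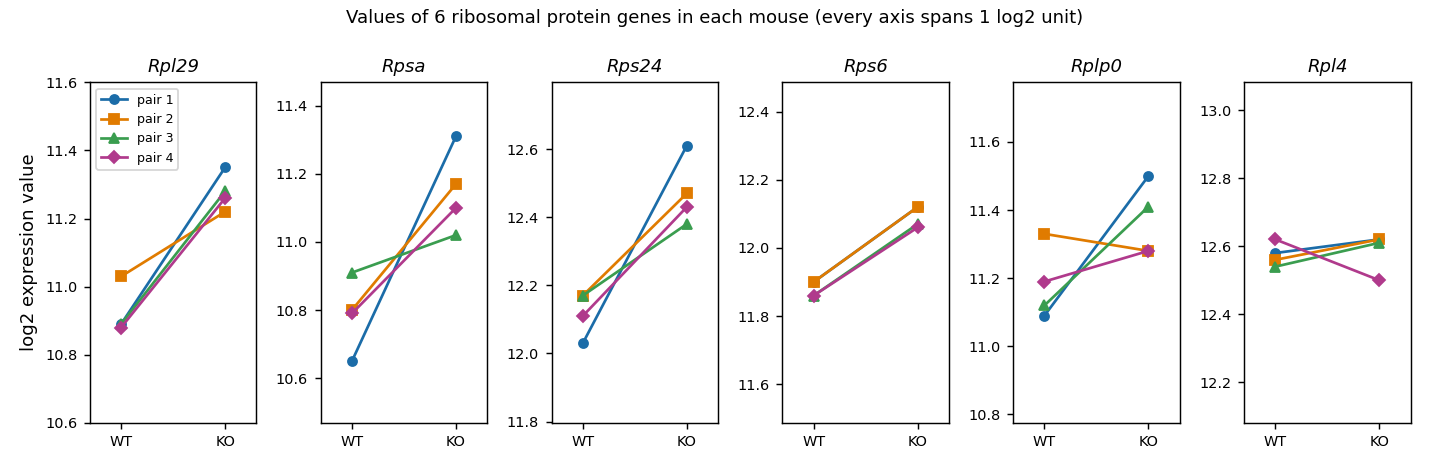
Log2 expression values (vertical axis, each panel spanning 1 log2 unit) of 6 ribosomal protein genes in the wild-type (WT) and knockout (KO) mouse of each sibling pair, joined by a line. Rpl29, Rpsa, Rps24 and Rps6 show 4 upward lines, Rplp0 has 1 downward line (pair 2), and Rpl4 is nearly level.

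Among the large subunit genes, 33 of 33 had a mean difference above 0, with a median of 0.19, and 12 (36.4%) were higher at an unadjusted p under 0.05, to be set against the same 13.2% and 22.1%. Rpl29, whose product also occurs at cell surfaces as a heparan sulfate binding protein, was the only member that rose by the adjusted test. Its values were 10.89, 11.03, 10.89 and 10.88 in wild types and 11.35, 11.22, 11.28 and 11.26 in knockouts. All 4 knockouts lay above all 4 wild types, and pair 2 had the smallest of the 4 differences (0.46, 0.19, 0.39 and 0.38). The mean difference was 0.355 ± 0.12, or 1.28-fold (limma adjusted p = 0.0489, 95% interval 0.17 to 0.54). This call was marginal. It was lost on leaving out pair 1, 2, 3 or 4 (limma adjusted p = 0.141, 0.106, 0.130 and 0.127), while the difference stayed between 0.32 and 0.41. Fits on 3 pairs leave 2 residual degrees of freedom instead of 3 and call fewer probe sets in all. Without pair 1, 136 were called higher, against 702 in the reported fit. Such a loss is thus not particular to Rpl29, which holds also for the genes below.

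Rpl37a and Rpl36a, small proteins of the large subunit, differed by 0.35 ± 0.16 and 0.33 ± 0.22 (limma adjusted p = 0.0611 and 0.0944), both without overlap. Rpl37a stood at 10.19 to 10.35 in wild types and 10.55 to 10.76 in knockouts. Rpl19, which takes part in a bridge between the subunits, was 11.98 to 12.17 in wild types and 12.30 to 12.51 in knockouts, a difference of 0.31 ± 0.17. Rpl23, another protein that can bind Mdm2, differed evenly, by 0.35, 0.32, 0.24 and 0.22 (adjusted p = 0.0634). Rpl32 and Rpl10a differed by 0.25 ± 0.11 and 0.25 ± 0.15 and were higher in 4 of 4 pairs. Rpl10a differed most in pair 3, at 0.42, where most members had smaller values. Rpl36 and Rpl39 had means of 0.27 and 0.27, and both differed most in pair 1, by 0.67 and 0.54. Rpl39 lines the exit tunnel of the nascent chain.

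The stalk recruits the elongation factors. Its base protein gene Rplp0 stood at 11.09, 11.33, 11.12 and 11.19 in wild types and at 11.50, 11.28, 11.41 and 11.28 in knockouts. The groups overlapped, since the pair 2 knockout was lower than its sibling by 0.05, and the mean difference was 0.185 ± 0.20 (limma adjusted p = 0.264). Rplp1, which sits on that base, was 12.85 to 12.97 in wild types and 13.03 to 13.25 in knockouts. Its difference of 0.245 ± 0.15 came without overlap (adjusted p = 0.124).

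Rpl5 and Rpl11 form a particle that restrains Mdm2 when ribosome assembly fails, and their differences were unequal in size. Rpl5 was higher in 4 of 4 pairs, with 11.43 to 11.49 in wild types and 11.53 to 11.74 in knockouts (0.19 ± 0.12, limma adjusted p = 0.170). Rpl11 stood at 12.15 to 12.25 in wild types and 12.11 to 12.33 in knockouts (0.02 ± 0.13, adjusted p = 0.883), with the knockout higher in 2 pairs of 4. The intervals, 0.01 to 0.38 and −0.17 to 0.21, overlap, and the difference between the genes was not tested.

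The members with the smallest differences in the large subunit included the following. Rpl3, near the peptidyl transferase centre, differed by 0.09 ± 0.15. Rpl4, which lines the exit tunnel, stood at 12.58, 12.56, 12.54 and 12.62 in wild types and at 12.62, 12.62, 12.61 and 12.50 in knockouts. Its mean difference was 0.01 ± 0.089, with a 95% interval of −0.16 to 0.19. Rpl8, a neighbour of the same centre, differed by 0.055 ± 0.17. Rpl6 and Rpl21 differed by 0.07 ± 0.13 and 0.07 ± 0.17. In pair 4 the knockout was lower for each of these 5 genes, by 0.10 to 0.15.

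Of the large subunit genes not yet named, Rpl35, Rpl35a, Rpl14, Rpl37 and Rpl7a had means between 0.19 and 0.22 and were higher in 4 of 4 pairs. Rpl22, which is dispensable for the ribosome's core work and has a paralog, Rpl22l1, differed by 0.19 ± 0.22, with −0.05 in pair 4. Rpl41, the shortest ribosomal protein, differed by 0.16 ± 0.17, with 0.39 and 0.19 in pairs 1 and 2 and 0.01 and 0.04 in pairs 3 and 4. Rpl15, Rpl31, Rpl9, Rpl28 and Rpl17 had means between 0.11 and 0.14. Rpl31 and Rpl28 were higher in 4 of 4 pairs, and Rpl15, Rpl9 and Rpl17 were lower in the knockout of pair 4. Rpl27, Rpl38 and Rpl7 had means of 0.10, 0.10 and 0.08. Rpl27 was higher in 2 pairs, Rpl38 in 3 and Rpl7 in 4.

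Many ribosomal protein genes have processed pseudogenes, whose sequence can share probes with the parent. RefSeq symbols of the form gene-ps were found for 43 of the 54 members, 210 in all and up to 24 for Rpl31, so values of these members may include transcripts of close copies. The median difference was 0.20 in the 43 members with such a symbol and 0.15 in the 11 without. Rpl4, Rpl11, Rpl8 and Rpl6, with small differences, and Rpl23 and Rps14, with large ones, are among the 11.

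The members lie high on the array's scale, and the differences of all probe sets were not even over that scale. The median difference of all probe sets was −0.07 where the mean log2 value was under 5, −0.03 between 6 and 7, 0.02 between 7 and 8 and 0.07 between 11 and 12. In the bin from 11 to 12 the 21 members had a median of 0.20, and in the bin from 12 to 13 the 17 members had 0.135 against 0.045. With cyclic loess normalization, which takes out such a trend, the median of the members was 0.14, with 52 of 54 above 0 and 0 called.

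**Figure D3:**
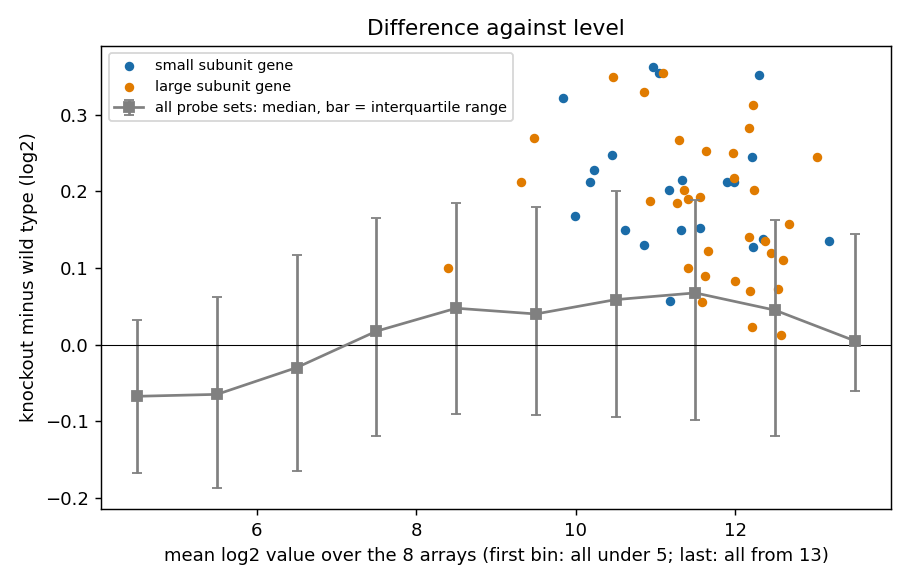
Mean difference between knockout and wild type (log2, vertical axis) against the mean log2 value over 8 arrays, for the 54 members by subunit (points) and for all probe sets in bins of 1 log2 unit (squares, median; bars, interquartile range). The members' median lies above that of all probe sets in each bin that holds members, and the bin medians run from −0.07 to 0.07.

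The direction of the members' difference can depend on the scaling of the arrays, and their median turned under 1 scaling, centring on housekeeping genes. The 10 housekeeping genes measured had a median difference of 0.20, close to that of the members, with 0.21, 0.21, 0.12 and 0.11 in pairs 1 to 4. Of these genes 9 had a mean difference above 0, and Gusb was called higher (0.37, limma adjusted p = 0.0449). When each array was centred on the 10 genes, the median of all probe sets became −0.24 and that of the members −0.03, with 17 of 54 above 0. This centring moves every gene by the same amount, so the gap of 0.21 between the members and all probe sets is kept by construction. Under centring on mitochondrial ribosomal protein genes the members had a median of 0.14 and all probe sets −0.07. Of all calls 54.0% were higher in the reported fit, 6.96% when centred on housekeeping genes and 34.3% when centred on the mitochondrial ribosomal genes. Without the pair as a block, limma called 28 members higher and 0 lower, against 16.3% of all probe sets called higher. With trend and robust variance 5.11% of all probe sets were called higher and 10 members were called, namely Rpl29, Rpsa, Rps14, Rps24, Rpl37a, Rpl19, Rpl23, Rpl32, Rps6 and Rps7.

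**Figure D4:**
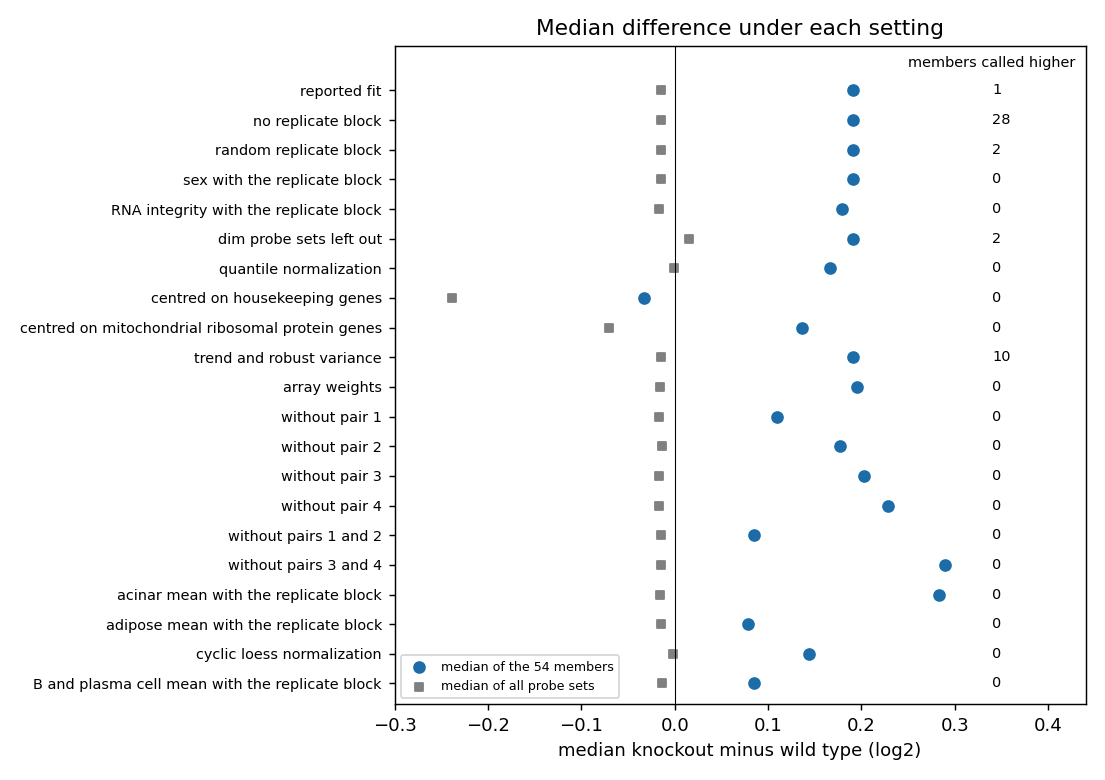
Median knockout minus wild-type difference (log2, horizontal axis) of the 54 members (circles) and of all probe sets (squares) under the reported fit and each other setting (rows), with the number of members called higher at the right. The members' median lies above that of all probe sets in every row, from 0.085 (without pairs 1 and 2) to 0.29 (without pairs 3 and 4) among the fits on fewer pairs. Some rows share the reported fit's gap of 0.21 between the 2 medians by construction. They are no block, random block, sex, trend and robust variance, and both centrings.

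Other genes that make or serve ribosomes were examined for comparison. Rps3a1 and Fau encode ribosomal proteins that the symbol rule leaves out, and they differed by 0.27 ± 0.088 (limma adjusted p = 0.0762) and 0.085 ± 0.11. Of 9 paralogs measured 0 were called, with a median of 0.07. Rpl36al differed by 0.32 ± 0.26 and Rps27l by 0.23 ± 0.10, and neither passed the test. Of 14 translation factors and other genes with the pyrimidine motif 0 were called (4 higher at an unadjusted p under 0.05), with a median of 0.15. The nascent-chain factor gene Naca and the poly(A)-binding protein gene Pabpc1 had the largest values, 0.28 ± 0.087 and 0.27 ± 0.097. The elongation factor genes Eef1a1 and Eef2 differed by 0.055 and 0.06, and Tpt1 by −0.01, so members of this translational class were not uniformly higher.

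In ribosome assembly 2 of 37 genes were called higher and 0 lower, with a median of 0.14. Rrp12, an export factor of the ribosomal precursors, rose by 0.445 ± 0.14 (limma adjusted p = 0.0337), and the nucleolar protein gene Lyar rose by 0.445 ± 0.18 (adjusted p = 0.0432). Leaving out any 1 pair ended both calls (limma adjusted p from 0.0786 to 0.106 and from 0.0646 to 0.148), as did adding sex or RNA integrity. With sex both differences stayed at 0.445 by design, and the fit leaves 2 residual degrees of freedom instead of 3. A call lost with sex is therefore no test of sex, which holds also for the genes below. The share called is to be set against the 3.16% of all probe sets called higher, here and for the lists that follow. The abundant nucleolar chaperone gene Npm1 differed by 0.25 ± 0.056 and the nucleolin gene Ncl by 0.22 ± 0.16, without a call. Of 13 genes of RNA polymerase I and its factors 1 was called. Znrd1, a polymerase subunit, rose by 0.41 ± 0.11 (adjusted p = 0.0348; 0.0789 to 0.129 with 1 pair left out), while the list's median was −0.02 and Ubtf, the factor that marks active ribosomal DNA, differed by −0.07 ± 0.085. Among 18 growth regulators 2 rose, Mycl by 0.52 ± 0.10 (adjusted p = 0.0203) and the cap-binding factor gene Eif4e by 0.38 ± 0.13 (adjusted p = 0.0461), with a median of 0.10. Both calls were lost on leaving out any 1 pair (limma adjusted p from 0.0633 to 0.0754 and from 0.0941 to 0.157) and with sex or RNA integrity. Myc, which drives ribosome production, differed by 0.41 ± 0.26 and was higher in 4 of 4 pairs, but did not pass the test (adjusted p = 0.0748). Mtor differed by 0.165 ± 0.053.

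Ribosomal proteins of the mitochondrion are encoded by other nuclear genes and build a separate ribosome. Of 73 such genes 6 were called higher and 0 lower, against 3.16% of all probe sets called higher, and their median was 0.10 (0.18, 0.19, 0.04 and 0 by pair), so it was smaller than that of the cytosolic members, and the difference between the lists was not tested. Mrpl3 rose by 0.83 ± 0.081 (limma adjusted p = 0.00514), more than any cytosolic member. Mrpl20 rose by 0.675 ± 0.15, Mrps27 by 0.49 ± 0.11 and Mrpl37 by 0.49 ± 0.14. The call of Mrpl3 held without any 1 pair, that of Mrpl20 was lost without pair 1 or 2 (limma adjusted p = 0.0569 and 0.0645), and those of Mrps27 and Mrpl37 were lost without any 1 pair (0.0537 to 0.0966 and 0.0565 to 0.0929) and with sex or RNA integrity. The mitochondrial differences ran from −0.31 for Mrpl33 to 0.83, a wider spread (SD 0.20 over 73 genes) than that of the cytosolic members (SD 0.09 over 54).

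Marker genes of several cell types also differed between the siblings, and the pairs with the largest differences were not the same for every list. For B and plasma cells, 9 of 10 genes were measured. Their median difference was 0.86 in pair 1, 0.51 in pair 2, −0.09 in pair 3 and −0.03 in pair 4. Their median level ran from 7.82 to 8.38 in knockouts and from 7.55 to 7.94 in wild types, and 0 of the 9 were called. With their mean as a covariate beside the block, a setting chosen after the data were seen, the median of the members was 0.085, with 44 of 54 above 0. Fat cell genes, 9 of them, differed by medians of 3.59 (pair 1), 3.35 (pair 2), 0.34 (pair 3) and 0.19 (pair 4). When their mean was fitted beside the block, the members' median was 0.08 and 42 members were above 0. The 18 proliferation genes had medians of 0.36, 0.205, 0.42 and −0.04, with 4 called higher, such as Mki67 (0.51, limma adjusted p = 0.0235). The 7 fibroblast genes had medians of 0.42, 0.38, −0.24 and −0.52, also highest in pairs 1 and 2, with 0 called by limma (0 at an unadjusted p under 0.05). Smooth muscle genes had 0.22, 0.02, −0.475 and −0.615, with 0 called. The 13 acinar genes had −0.55, 0.06, −3.93 and −3.39, with 1 called lower. The 9 T cell genes had 0.06, −0.12, −0.13 and −0.8, with 1 called higher. Of these 9 genes 7 had a mean difference below 0, and at an unadjusted limma p under 0.05, 1 was higher and 4 were lower. The 9 myeloid genes had 0.23, 0, 0.07 and −0.12, with 0 called. The 13 epithelium genes had −0.02, 0, −0.16 and −0.08, with 1 called higher. The 2 erythroid genes measured had −0.33, −0.01, 0.09 and 0.02, with 0 called. Fitting the mean of the acinar genes beside the block gave a members' median of 0.28. Of 15 enterocyte genes 4 were called lower (median −0.25, and −0.39, −0.23, −0.2 and −0.45 by pair). Of 11 Paneth cell genes 3 were called lower (median −0.72, and −0.82, −1.1, 0.04 and −1.03 by pair). Over all probe sets 2.70% were called lower. Of 8 goblet and 8 stem cell genes 0 were called by limma (medians 0.03 and −0.0025). By pair these lists had 0.01, −0.035, 0.025 and 0.065, and −0.025, 0.02, 0.3 and −0.155. At an unadjusted limma p under 0.05, 1 gene was higher in each of these lists, and 0 and 2 were lower. That threshold was passed by 13.2% of all probe sets as higher and by 3158 of 22206 as lower. RNA integrity was higher in the knockout by 0.9 in pairs 1 and 3 and lower by 0.4 and 0.7 in pairs 2 and 4, and with it as a covariate the median was 0.18. The part of these cells and of RNA integrity in the members' difference was not tested beyond these fits, each of which leaves 2 residual degrees of freedom.

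**Figure D5:**
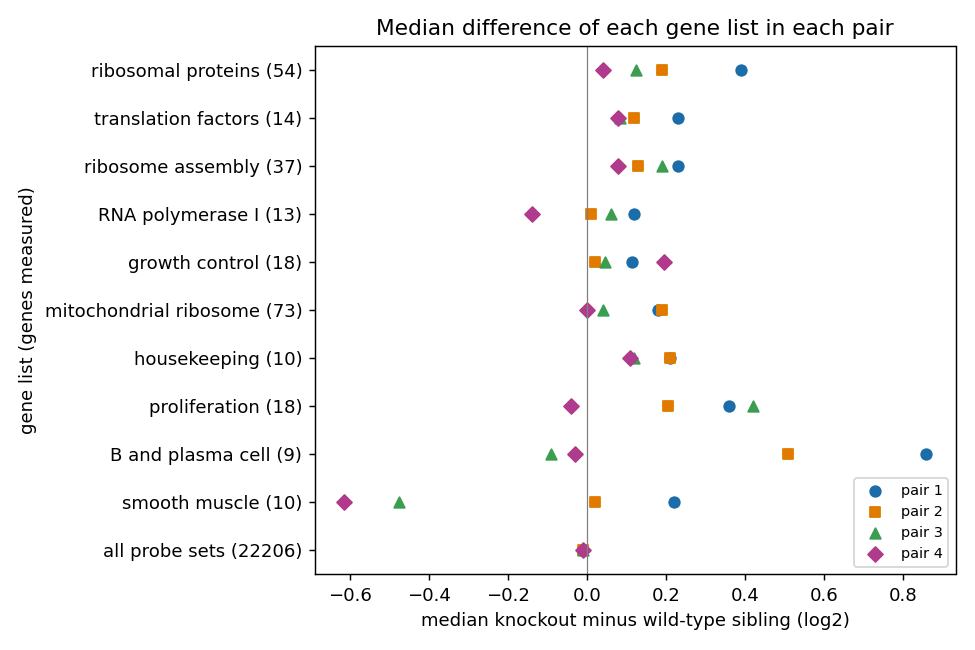
Median knockout minus wild-type difference (log2, horizontal axis) of each gene list (rows, with the number of genes measured) in each sibling pair (symbols). The ribosomal proteins lie at 0.39, 0.19, 0.125 and 0.04 in pairs 1 to 4. The B and plasma cell and smooth muscle genes lie highest in pairs 1 and 2, and the proliferation genes in pair 3.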

How the data were processed

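The authors deposited 1 log2 value per probe set and array. Per the submitters' processing notes, the tools were RMA and Transcriptome Analysis Console 4.0; no other setting is given in those notes or the labels. Near-equal pair means are a feature of the values that no source used here explains. Of 22206 probe sets 19572 had 1 gene symbol and 2634 are unnamed here; all 54 members were found by gene ID in RefSeq (GRCm38.p6). Limma 3.58.1 in R 4.3.3 fitted genotype with the sibling pair as a block (3 residual and 6.63 total degrees of freedom) and adjusted p-values by Benjamini-Hochberg across the whole table; the script was tested on simulated data. The pairing comes from the labels, and each sibling's deviation from its group mean ran against the other's (correlation −0.913 to −0.870). The number of arrays, 8, limits the precision. Members, lists and tests were chosen with earlier results of these data known. Named genes were the called members, the 6 largest and 6 smallest differences, the 2 highest and 2 lowest values and genes chosen for their role, and in each other list up to 4 called genes or, with none, the 2 with the largest change; other members and list genes were added after their values were seen, so that all 54 are named. Values of different probe sets were not compared as levels. Alternatives were no block, the pair as a random effect, covariates (sex, RNA integrity, or the mean of acinar, adipose or B cell genes), a filter on dim probe sets (kept above 5.65, which 95 percent of 1091 probe sets for olfactory receptors do not pass), quantile and cyclic loess normalization (cyclic loess and the B cell covariate were chosen after seeing the data), centring, trend and robust variance, array weights, omitted pairs and 4 added ribosomal genes, of which Rps3a1 and Fau are analysed here.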

Additional observations from a re-analysis of the deposited data

Results flagged for a closer look

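With 4 values a point was marked when its gap to the nearest other exceeded 0.829 of the range (Dixon's 95% value), which chance does in about 1 in 20 groups; 40 named genes and 28 lists were examined. Rpl4 was marked for pair 4, where the knockout was lower by 0.12 (−0.12), against 0.04, 0.06 and 0.07 in pairs 1 to 3. Nfkbia was marked for pair 3, with −1.29 against −2.93, −3.26 and −3.13 in pairs 1, 2 and 4. A relation between the fall of Nfkbia and the members' difference was not tested.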

How the results depend on the processing

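The reported fit called 702 probe sets higher and 599 lower and 1 member, Rpl29. Without the replicate block it called 28 members, and 3622 and 4026 of all probe sets; with a random block 2 members (Rpl23 and Rpl37a) and 982 lower probe sets; with dim probe sets left out 2 members (Rpl23 and Rpl29); with trend and robust variance 10 members and 1135 higher probe sets. In all other settings that refit the values, 0 members were called by limma, without any 1 pair as well. Counts of higher and lower probe sets were 231 and 233 with sex, 212 and 152 with RNA integrity, 376 and 240 with acinar genes as covariate, 328 and 4388 after housekeeping centring, 437 and 385 with the B cell mean, 1 and 25 without pairs 1 and 2, and 0 and 0 without pairs 3 and 4 (21 members at an unadjusted p under 0.05); 403 were higher with the adipose mean and 1091 lower centred on mitochondrial ribosomal genes. Leaving out 1 pair gave 89 to 219 higher and 56 to 240 lower.

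Adding the companion genes Rps3a1 and Fau left the median of the members at 0.19. Centring on housekeeping genes moves all genes by 1 common amount. The median of the members turned negative (−0.03) in this setting alone, and the same shift turned Rpl21 (−0.15), Rpl6 (−0.15), Rps26 (−0.17), Rpl8 (−0.17), Rpl11 (−0.20), Rpl4 (−0.21), Rps23 (−0.089), Rpl27 (−0.12), Rpl35a (−0.011), Rplp0 (−0.039), Rps6 (−0.011), Rpl3 (−0.13), Rpl5 (−0.031), Rpl22 (−0.034), Rpl41 (−0.066) and Fau (−0.14). None of these was called in either fit by limma. Small values also turned elsewhere: Rpl11 with RNA integrity (−0.0016), quantile normalization (−0.0052), cyclic loess (−0.023) and mitochondrial centring (−0.0325); Rpl4 with the last 2 (−0.031 and −0.0425) and without pair 2 or 3. Leaving out 1 pair gave −0.0067 to 0.057 for Rpl4 (−0.0033 without pair 2), −0.010 to 0.12 for Rpl8 and −0.030 to 0.07 for Rpl11, the last 2 turning without pair 1. Without pairs 1 and 2, with the adipose mean and with the B cell mean, the values were −0.020, −0.029 and −3e-04 for Rpl6, −0.065, −0.081 and −0.054 for Rpl8, −0.030, −0.044 and −0.0305 for Rpl11, −0.025, −0.032 and −0.012 for Rpl4 and −0.060, −0.072 and −0.043 for Rpl27; Rps26 had −0.0050 and −0.021 in the first 2. The cause was not tested.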

Other observations

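Across the 54 members, the differences of pairs 1 and 2 had a Pearson correlation of 0.56 and those of pairs 3 and 4 of 0.46. Pairs 1 and 4 and pairs 2 and 4 gave 0.39 and 0.40, pairs 1 and 3 gave 0.15 and pairs 2 and 3 gave −0.12. These are descriptions over genes that share the same arrays, not tests. The order of the members by size of difference was thus only partly shared between pairs.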
